A study of Homo sapiens with 8 samples.

Results

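Genes with a LINC number, the placeholder symbol of long intergenic noncoding RNA genes that have no name of their own, were examined by RNA-seq in U251 cells, an established line from a human glioblastoma. The cells had received vehicle or LLY-283, which blocks PRMT5, a methyltransferase that symmetrically dimethylates arginines in splicing factors and histones. All libraries came from U251 cells of WT genotype in DMEM with serum. The vehicle group received DMSO and the other group LLY-283 at 100 nM, both for 24 h, with 4 libraries a group whose titles call them biological replicates. One cell line is a single tumour model, and the p-values measure the spread between these libraries. Genes were chosen by symbol (LINC followed by digits) and by a mean of at least 1 TPM (transcripts per 1e6 transcripts) over the 8 libraries. Of the 61906 genes in the table, 2248 rows had such a symbol. Of these, 1278 were at 0 in all 8 libraries, 822 were above 0 with a mean under 1 TPM, and 148 (6.58%) passed. The 148 rows hold 146 symbols. LINC00106 appears in 2 rows with identical values, the X and Y copies of a pseudoautosomal gene, so that 147 loci are represented.

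Long intergenic noncoding RNAs are transcribed by RNA polymerase II, spliced and polyadenylated like messenger RNAs, but have no long conserved open reading frame. Many are retained in the nucleus, are spliced inefficiently and turn over quickly. Some act in cis on neighbouring genes, some bind chromatin regulators, and a few encode micropeptides. Libraries were made from RNA captured by oligo-dT, so LINC transcripts without a poly(A) tail were not measured.

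The rule used the mean over both groups and not the difference between them, but a gene near the limit can pass through 1 group. Of the 148 rows, 134 had a mean of at least 1 TPM in both groups, 11 only in vehicle and 3 only in LLY-283. Just inside the limit were LINC01237 (mean 1.025 TPM; 1.40, 1.03, 1.31 and 1.23 in vehicle and 1.01, 1.31, 0.55 and 0.36 in LLY-283) and LINC01224 (mean 1.03 TPM; 0.89, 1.87, 1.08 and 0.99 against 0.74, 1.22, 0.88 and 0.57). Just outside were LINC01063 (mean 0.986 TPM; 0.94, 1.80, 1.37 and 0.83 against 0.72, 0.39, 0.90 and 0.94) and LINC01152 (mean 0.984 TPM; 1.36, 1.13, 1.11 and 1.03 against 0.86, 0.88, 0.74 and 0.76).

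Markers of the glial and glioblastoma lineage were uneven. VIM was at 4301 TPM in vehicle and 4121 TPM in LLY-283, CD44 at 1576 and 1700 TPM, GFAP at 810 and 680 TPM, NES at 483 and 429 TPM and SOX2 at 103 and 85.6 TPM. S100B was at 4.34 and 3.21 TPM, and OLIG2, another marker on this list, at 0.0075 and 0.005 TPM. PTPRC, PECAM1, EPCAM and RBFOX3, which define leukocytes, endothelium, epithelium and neurons, had group means of 0 to 0.0625 TPM, while other markers of these types were present, KRT8 (epithelium) at 320 and 333 TPM, SYT1 (neuron) at 5.12 and 4.77 TPM and CD68 (leukocyte) at 1.75 and 1.32 TPM. LLY-283 replicate 4 stood apart from the other libraries. Genes of the mitochondrial genome took 7.19% of its TPM, against 10.2 to 10.7% in vehicle and 10.6 to 11% in LLY-283 replicates 1 to 3. It was the lowest LLY-283 library in 56 of the 148 LINC rows (37.8%), close to the 37.5% of all genes tested, and in 18 of the 33 rows called decreased below. Its part in the decreases was not tested. Without it 22 rows were decreased and 3 increased, and 434 and 74 of all 14478 genes tested, against 504 and 57 with it. TPM keeps no read depth, so the counting error behind a low value is unknown.

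Sequences are shown first for LINC00910 and LINC00173, which had large decreases, and for LINC02307, which had the largest increase, so that the genes described below can be seen; no link between sequence and change was tested. LINC00910 lies on chromosome 17 (GRCh38 chr17:43338741-43389226, minus strand, 7 exons in the GENCODE release 44 transcript used here), with no protein-coding gene overlapping it. LINC00173 lies on chromosome 12 (chr12:116533422-116536518, plus strand, 3 exons, 435 transcript bases). The RefSeq promoter windows (build GRCh38.p14, 250 bases before to 50 after the start, 5′ to 3′) are chr17:43388849-43389148 on the minus strand and chr12:116533172-116533471 on the plus strand. Capitals mark letter matches to 3 promoter motifs on either strand, at any place in the window. These are the TATA box (TATAAA), the CCAAT box (CCAAT) and the GC box (GGGCGG), and the matches shown do not overlap. A match does not show that the motif is used.
LINC00910 promoter: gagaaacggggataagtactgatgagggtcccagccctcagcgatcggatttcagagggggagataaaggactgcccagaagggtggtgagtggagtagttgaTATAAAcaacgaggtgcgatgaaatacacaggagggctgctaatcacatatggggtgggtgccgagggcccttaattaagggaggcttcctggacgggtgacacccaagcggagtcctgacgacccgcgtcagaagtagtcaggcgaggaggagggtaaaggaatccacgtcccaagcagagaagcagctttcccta
LINC00173 promoter: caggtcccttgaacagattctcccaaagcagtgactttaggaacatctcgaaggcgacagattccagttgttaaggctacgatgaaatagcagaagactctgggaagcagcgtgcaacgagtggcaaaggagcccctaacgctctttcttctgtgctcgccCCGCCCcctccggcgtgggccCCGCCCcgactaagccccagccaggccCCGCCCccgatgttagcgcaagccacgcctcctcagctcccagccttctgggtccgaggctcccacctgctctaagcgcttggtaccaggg
The LINC00910 window holds 1 TATAAA and no GGGCGG and has 55.0% GC, while the LINC00173 window holds 3 GGGCGG on the opposite strand and has 61.0% GC.

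PRMT5 acts on the Sm proteins of the spliceosome, so the 5′ splice sites of the same genes are also shown. Each is the last 3 exon bases and the first 6 intron bases, read from GRCh38 with GENCODE release 44, and capitals mark the GT that opens the intron.
LINC00910 intron 1: ggtGTaaga
LINC00910 intron 2: aagGTaggt
LINC00910 intron 3: gagGTaggc
LINC00910 intron 4: gatGTaagg
LINC00910 intron 5: cagGTaata
LINC00910 intron 6: cagGTaata
LINC00173 intron 1: aatGTaagt
LINC00173 intron 2: tcgGTaaat
LINC02307 intron 1: gcgGTgagt
LINC02307 intron 2: aagGTgagc
LINC02307 intron 3: gtgGTgagt
All 11 introns open with GT and end with AG. LINC02307, the LINC gene with the largest increase (chr14:43990539-44386064, minus strand, 4 exons), has introns of 336386, 53539 and 4844 bases, and GTGAG opens all 3.

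LINC genes were more often lower than higher after LLY-283. With a call defined as an adjusted p under 0.05 (limma on log2(TPM + 0.1), Benjamini-Hochberg over 14478 genes) and a change above 1.5-fold, 33 of 148 rows (22.3%) went down, 3 (2.03%) went up and 112 were not called. Over all genes tested, 3.48% went down and 0.394% up. The counts moved with the processing: quantile normalization gave 14 down and 5 up (260 and 126 of all 14478 genes, against 504 and 57), and a pseudocount of 1 gave 20 and 1 (313 and 38 of all genes). By adjusted p alone, at any fold, 47 LINC rows (31.8%) fell and 6 (4.05%) rose, against 17.6% and 8.61% of all genes. The split over all genes turned with the scaling: 2541 fell and 1247 rose as deposited, 1866 fell and 1927 rose with median-of-ratios scaling (42 and 8 LINC rows), and 1820 fell and 1871 rose with quantile normalization (33 and 7 LINC rows). In bulk libraries, less RNA per cell and fewer cells that express a gene cannot be told apart. The log2 fold change was negative in 127 of 148 rows (85.8%), against 60.2% of all genes. Its median was -0.27 (quartiles -0.57 and -0.09), against -0.05 (-0.20 and 0.07) over all genes tested. All 4 LLY-283 values lay below all 4 vehicle values in 49 rows (33.1%; 19.6% of all genes) and above them in 7 (4.73%; 9.63% of all genes).

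**Figure D1:**
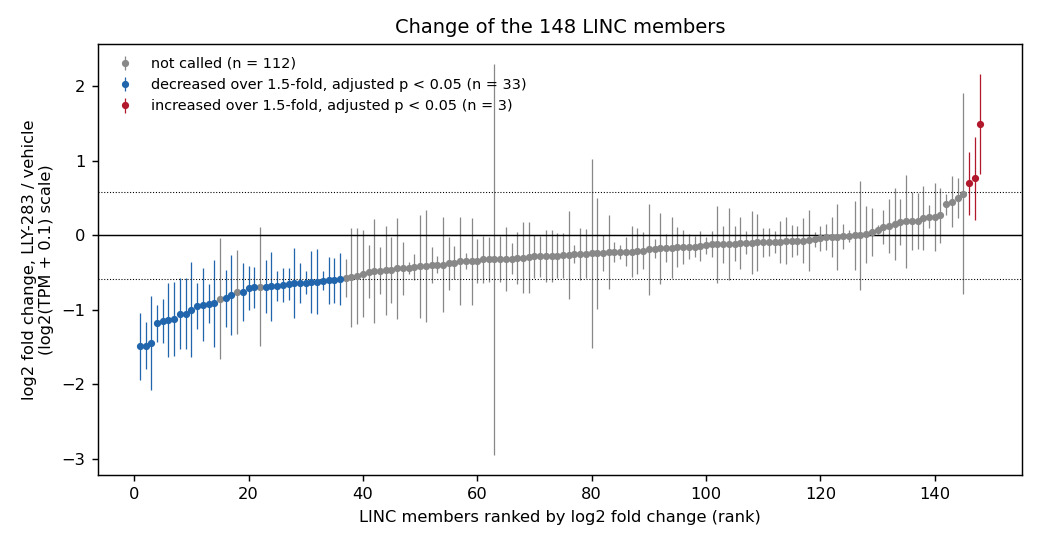
The 148 LINC rows ranked by log2 fold change (LLY-283 over vehicle, on the log2(TPM + 0.1) scale) with 95% confidence intervals from limma. Dotted lines mark 1.5-fold. Blue points are the 33 decreased rows, red the 3 increased and grey the 112 not called, and most points lie under 0.

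The share of decreased rows was set beside that of all genes at the same level. The median over LINC rows of the mean level was 3.81 TPM, against 17.1 TPM over all genes tested. Between 1 and 2 TPM, 8 of 44 LINC rows (18.2%) were decreased, against 9.01% of all genes at that level. Between 2 and 5 TPM the count was 14 of 47 (29.8%, against 8.44%), between 5 and 10 TPM 7 of 30 (23.3%, against 5.05%), and at 10 TPM or more 4 of 27 (14.8%, against 1.14%). Between 1 and 2 TPM, 6 of the 8 decreased rows passed the level limit only through vehicle, so the share in that range is a description. Of the 1229 other tested genes of the lncRNA biotype, 17.6% were decreased and 1.06% increased, with a median log2 fold change of -0.28, close to the LINC values. Of the 12084 protein-coding genes, 1.76% were decreased and 0.257% increased, and of the 1883 among them under 5 TPM 5.15% and 0.69%, with a median of -0.13. The differences between these classes were not tested. Of the 134 LINC rows that passed the limit in both groups, 27 were decreased by limma and none increased (3.48% and 0.394% of all genes tested). At an unadjusted p under 0.05, 5 of the 134 were positive (13.2% of all genes tested).

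**Figure D2:**
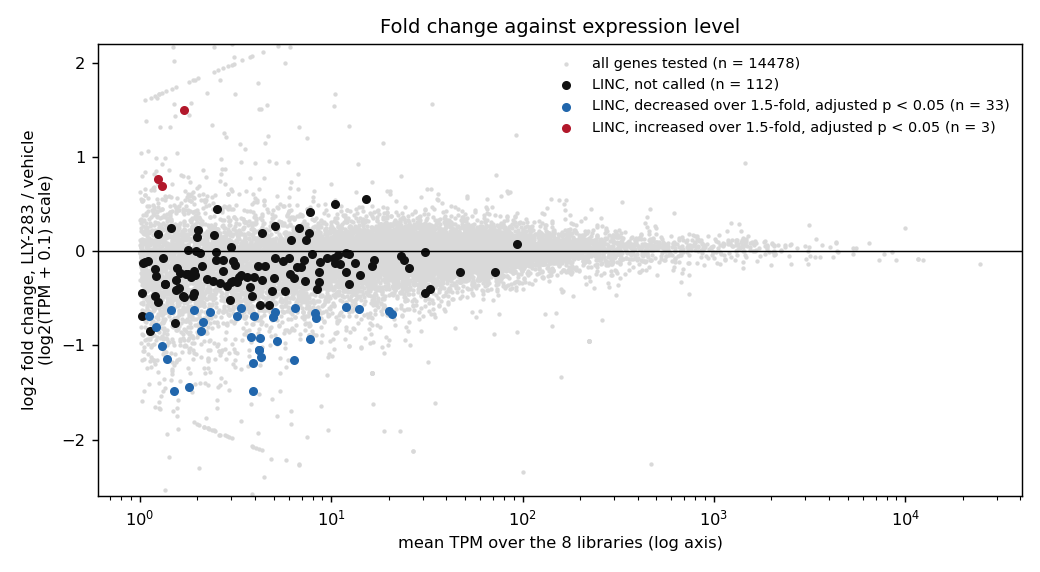
Log2 fold change (log2(TPM + 0.1) scale) against the mean TPM over 8 libraries (log axis) for all 14478 genes tested (light grey) and the LINC rows (black, not called; blue, decreased; red, increased). The 43 genes beyond the vertical axis are not drawn; the 3 increased LINC rows sit near the left edge, and decreased rows appear up to 20.9 TPM.

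Summed over the 147 loci, LINC RNA took 1107, 1133, 1136 and 1166 TPM in vehicle and 983, 974, 976 and 925 TPM in LLY-283. The groups did not overlap, and the mean was 1135 ± 24.1 TPM (SD, n = 4) in vehicle and 965 ± 26.7 TPM (SD, n = 4) in LLY-283. The median LINC row was at 3.59 to 4.55 TPM in the vehicle libraries and at 2.85 to 3.09 TPM in the LLY-283 libraries. None of the LINC rows that passed the level limit was at 0 in any library.

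LINC00910, LINC00173 and LINC02614 had the most negative log2 fold changes with the main settings, but both this group and its order depended on the setting. LINC00173 stood first with a pseudocount of 0.5 (-1.33, against -1.15 for LINC00910), and LINC02614 without LLY-283 replicate 2 (-1.697, against -1.537 for LINC00910). With a pseudocount of 1, LINC02593 (-0.996) and LINC02783 (-0.947) passed LINC02614 (-0.913) and LINC00910 (-0.902). A filter at a mean of 2 TPM left LINC00910 and LINC02614 out. LINC00910, LINC02614 and LINC02616 had a group mean of at least 1 TPM only in vehicle. They thus passed the level limit through the group where they are high, and their place among the decreases is a description. LINC00910 was at 1.94, 2.50, 2.54 and 2.12 TPM in vehicle and 0.89, 0.83, 0.75 and 0.54 TPM in LLY-283, so every treated library was under every vehicle library. It fell 2.81-fold (log2 fold change -1.49, SE 0.200, limma adjusted p = 0.000844). LINC00173 was at 6.99, 4.35, 6.42 and 5.54 TPM in vehicle and 2.03, 1.88, 2.05 and 2.00 TPM in LLY-283. The vehicle libraries were spread (5.83 ± 1.15 TPM, SD, n = 4) while the treated ones lay close together (1.99 ± 0.0762 TPM), and the gene fell 2.79-fold (log2 fold change -1.48, SE 0.142, limma adjusted p = 0.000169).

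A pair of genes on chromosome 1 fell by similar amounts. LINC02783 (chr1:17189783-17197617) is in the region of the PADI genes, which encode peptidylarginine deiminases, and was at 5.54, 5.58, 5.35 and 5.37 TPM in vehicle and 2.61, 2.42, 2.53 and 1.89 TPM in LLY-283 (log2 fold change -1.18, SE 0.111, limma adjusted p = 0.000148). LINC02593 (chr1:916865-921016, minus strand), which starts 2907 bases from SAMD11, was at 8.51, 9.17, 8.26 and 9.20 TPM in vehicle and 4.23, 4.35, 4.35 and 2.86 TPM in LLY-283 (log2 fold change -1.15, SE 0.131, limma adjusted p = 0.000396). The groups did not overlap for either gene, and replicate 4 was the lowest treated library for both. SAMD11 itself was at 57.6 ± 3.26 TPM in vehicle and 60.2 ± 1.53 TPM in LLY-283 (SD, n = 4; log2 fold change 0.07, limma adjusted p = 0.298).

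LINC02152 and LINC01515, neither of which shares sequence with other genes, were also lower in every treated library. LINC02152, a single-exon gene on chromosome 16, was at 6.67, 8.17, 6.54 and 6.25 TPM in vehicle and 3.42, 4.35, 3.67 and 2.76 TPM in LLY-283 (log2 fold change -0.95, limma adjusted p = 0.0013). LINC01515, on chromosome 10 with 6 exons and 2048488 bases from the start of JMJD1C, its nearest tested protein-coding gene, was at 6.02, 5.34, 5.42 and 5.42 TPM in vehicle and 2.87, 3.36, 3.07 and 2.33 TPM in LLY-283 (log2 fold change -0.92, limma adjusted p = 0.000613). LINC02616, on chromosome 4, was at 1.73, 2.55, 1.40 and 2.10 TPM in vehicle and 0.72, 0.98, 0.75 and 0.80 TPM in LLY-283 (log2 fold change -1.14, limma adjusted p = 0.00542). The groups did not overlap for any of the 3, though the vehicle values of LINC02616 were spread.

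In 4 further genes with large decreases, part or all of the transcript is shared with another gene, so reads could be split between copies. Sharing was measured as the percent of a transcript's 50-base stretches found in other annotated genes. LINC00106, fully shared with its other copy, was at 6.09, 4.63, 6.53 and 5.36 TPM in vehicle and 2.16, 2.45, 4.31 and 2.16 TPM in LLY-283 (log2 fold change -1.05, limma adjusted p = 0.00687). LINC00475, annotated as a pseudogene and 100% shared, was at 5.91, 5.15, 7.57 and 5.02 TPM in vehicle and 2.13, 3.31, 1.85 and 3.59 TPM in LLY-283 (log2 fold change -1.13, limma adjusted p = 0.0057). The groups did not overlap in either, though the treated libraries were uneven. LINC02614 (29.1% shared) was at 2.73, 2.92, 2.05 and 2.91 TPM in vehicle and 0.75, 1.59, 0.56 and 0.96 TPM in LLY-283 (log2 fold change -1.45, limma adjusted p = 0.00542). LINC01145 (100% shared) was at 3.56, 4.02, 3.90 and 8.99 TPM in vehicle and 2.42, 2.25, 2.68 and 2.53 TPM in LLY-283 (log2 fold change -0.92, limma adjusted p = 0.0282). In LINC01145 vehicle replicate 4 lay far above the other vehicle libraries, and without it the log2 fold change was -0.61 (limma adjusted p = 0.00801). Without any single LLY-283 library the limma adjusted p was 0.0531 to 0.0766 and the call was lost.

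**Figure D3:**
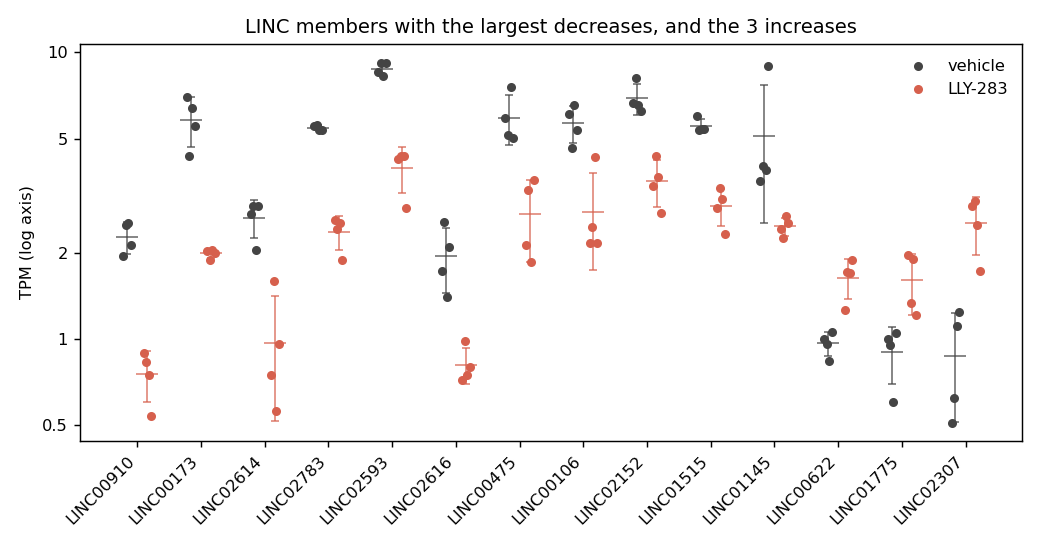
TPM (log axis) of the LINC genes with the largest non-overlapping decreases and of the 3 increased ones, 1 point a library (dark, vehicle; red, LLY-283), with the mean and SD of 4 libraries. In the decreased genes every red point lies under every dark point, and in the increased genes above.

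The 3 increased genes all passed the level limit only through the LLY-283 group, so they had to be higher there and their number is a description. LINC02307 was at 0.51, 0.62, 1.11 and 1.24 TPM in vehicle and 2.92, 3.03, 2.50 and 1.73 TPM in LLY-283. Vehicle and treated libraries did not overlap, and the gene rose 2.82-fold (log2 fold change 1.5, SE 0.297, limma adjusted p = 0.00612). LINC00622 was at 1.00, 0.96, 0.84 and 1.06 TPM in vehicle and 1.26, 1.71, 1.7 and 1.88 TPM in LLY-283 (log2 fold change 0.70, limma adjusted p = 0.0239). Its call was lost without LLY-283 replicate 3 (limma adjusted p = 0.0526) and with the replicate number as a block (limma adjusted p = 0.058). It was also lost with a pseudocount of 0.5 or 1, where the change was under 1.5-fold. LINC01775 was at 1.00, 0.95, 0.60 and 1.05 TPM in vehicle and 1.96, 1.33, 1.90 and 1.21 TPM in LLY-283 (log2 fold change 0.76, limma adjusted p = 0.0477), a call close to the threshold that most alternative settings did not keep. A further 3 genes, named because of their values, rose by less than 1.5-fold: LINC00578 (log2 fold change 0.25), LINC00641 (0.42) and LINC01963 (0.50).

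None of the 5 most abundant LINC genes changed by over 1.5-fold, and LINC01579 and LINC00963 fell by less. LINC00511, which binds the histone methyltransferase EZH2, was at 87.68, 93.30, 90.39 and 92.19 TPM in vehicle and 94.73, 94.38, 97.17 and 96.92 TPM in LLY-283. The treated values all lay higher, but the difference did not pass the test (log2 fold change 0.08, 95% interval 0.01 to 0.14, limma adjusted p = 0.0839). In 2 alternative settings it did pass the adjusted p threshold. LINC00461, a brain-enriched RNA whose locus hosts a miR-9 gene, was at 78.76, 74.73, 78.76 and 74.99 TPM in vehicle and 72.91, 67.54, 71.03 and 53.45 TPM in LLY-283 (log2 fold change -0.22, limma adjusted p = 0.0865). Replicate 4 was far below the other treated libraries, and without it the log2 fold change was -0.12 and the adjusted p was 0.0337. LINC01579 was at 52.99, 46.91, 52.55 and 50.80 TPM in vehicle and 44.46, 44.43, 41.75 and 43.09 TPM in LLY-283 and fell (log2 fold change -0.22, limma adjusted p = 0.00612). LINC00963, first described in prostate cancer and 57.4% shared with other annotated genes, was at 34.81, 38.98, 35.69 and 39.58 TPM in vehicle and 27.29, 29.22, 27.64 and 28.89 TPM in LLY-283 and fell (log2 fold change -0.40, limma adjusted p = 0.000635). LINC00665, which encodes the micropeptide CIP2A-BP, was at 30.80, 32.17, 30.48 and 30.17 TPM in vehicle and 30.18, 31.96, 30.11 and 30.82 TPM in LLY-283. Its values overlapped and the log2 fold change was -0.01 (95% interval -0.09 to 0.08, limma adjusted p = 0.917).

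Of 8 LINC genes chosen by name for a role known from the literature, 7 were measured above the limit, and LINC00473 was not analysed here. LINC01138, an RNA known to bind PRMT5 in hepatocellular carcinoma cells, was at 5.87, 5.99, 6.01 and 6.56 TPM in vehicle and 4.26, 4.17, 3.78 and 2.84 TPM in LLY-283. It fell 1.62-fold with no overlap between groups (log2 fold change -0.70, SE 0.125, limma adjusted p = 0.00359). LINC01138 overlaps PPIAL4G on the same strand and shares 44.2% of its sequence with other genes. Without LLY-283 replicate 4 its log2 fold change was -0.57, under the 1.5-fold limit.

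LINC01089, a tumour-suppressive RNA also called LIMT, was at 24.73, 23.32, 26.08 and 28.39 TPM in vehicle and 15.36, 17.47, 18.40 and 13.44 TPM in LLY-283. The lowest vehicle value was above the highest treated one, and the gene fell 1.59-fold (log2 fold change -0.67, SE 0.099, limma adjusted p = 0.00138). Without LLY-283 replicate 4 its log2 fold change was -0.58, under the 1.5-fold limit, so that the call was lost. It overlaps RHOF on the same strand, shares 58.8% of its sequence with other genes, and RHOF was at 8.02 ± 0.568 TPM in vehicle and 7.0 ± 1.03 TPM in LLY-283 (SD, n = 4; limma adjusted p = 0.204). LINC01116, which lies near the HOXD cluster, was at 25.46, 21.27, 24.36 and 26.25 TPM in vehicle and 16.29, 14.73, 16.27 and 15.12 TPM in LLY-283 (log2 fold change -0.63, SE 0.069, limma adjusted p = 0.000329). With quantile normalization the changes of LINC01116 and LINC01138 were under 1.5-fold and both calls were lost. LINC00339, next to the small GTPase gene CDC42, was at 9.79, 9.35, 8.84 and 10.51 TPM in vehicle and 7.95, 7.21, 8.25 and 5.84 TPM in LLY-283 (log2 fold change -0.40, limma adjusted p = 0.0232), and 96.4% of it is shared with other genes. Leaving out single libraries gave LINC00339 a limma adjusted p of 0.022 to 0.071. LINC00467, which encodes a mitochondrial micropeptide, was at 8.75, 11.60, 9.58 and 8.67 TPM in vehicle and 6.99, 8.97, 8.69 and 6.22 TPM in LLY-283, where the groups overlapped (log2 fold change -0.32, limma adjusted p = 0.105). In 1 alternative setting LINC00467 passed the adjusted p threshold.

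**Figure D4:**
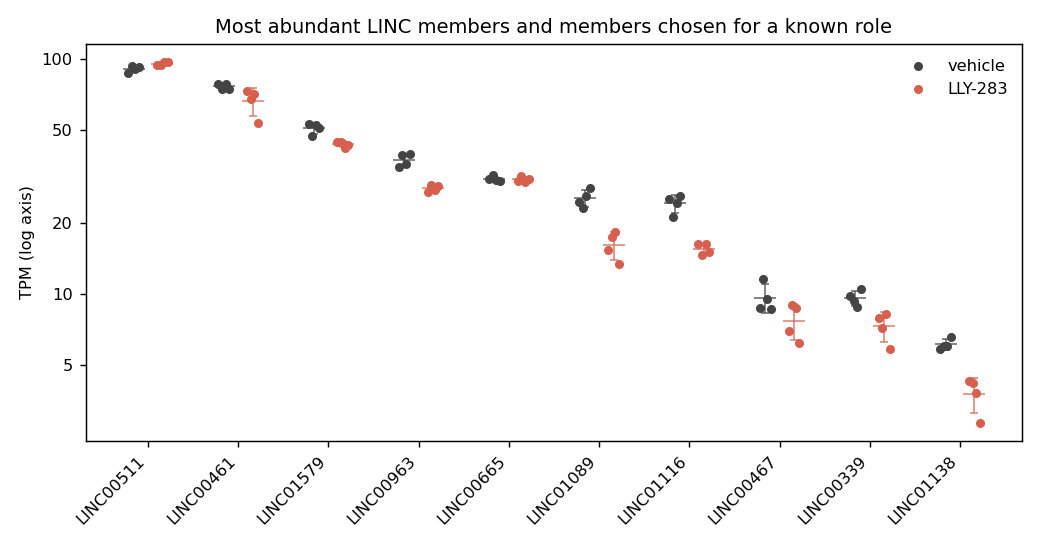
TPM (log axis) of the 5 most abundant LINC genes and of those chosen for a known role, 1 point a library (dark, vehicle; red, LLY-283), with the mean and SD of 4 libraries. LINC00511 and LINC00665 lie close in both groups, while LINC01089, LINC01116 and LINC01138 separate by group.

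Since LINC genes can act on or share a promoter with a neighbour, each was set beside the tested protein-coding gene with the nearest start site in GENCODE release 44, which held 146 of the 148 rows. Of the 32 decreased rows with a neighbour (31 different neighbours), no neighbour was called by limma, and 12 of the 30 neighbours found by symbol had an unadjusted p under 0.05, against 38.6% of all genes tested. With 3.48% and 0.394% of all genes called, a count of 0 among 31 lies near the background. Their log2 fold changes ran from -0.38 to 0.29 with a median of 0.02. By adjusted p at any fold ADAM12 (-0.12) and IPO13 (-0.21) fell while SPTLC1 (0.17), SLC25A6 (0.18) and 1 other gene rose. Of all genes tested, 17.6% fell and 8.61% rose by that measure. The median distance between start sites was 138051 bases, and 8 neighbours were within 10 kb. Over the 146 rows the Spearman correlation between the log2 fold changes of LINC gene and neighbour was -0.002, a description over points that share libraries. Among LINC rows that were not called, the neighbour was decreased for 3. LINC01237 and LINC01881 had the same neighbour, D2HGDH (log2 fold change -0.74), whose start lay 146761 and 360292 bases away. The neighbour of LINC00863 was NUTM2D (-0.91), 16035 bases away. LINC00863 overlaps NUTM2D on the same strand and shares 57.5% of its sequence with another gene. LINC01881 shares 91.2% of its sequence with other genes, and LINC01237 shares none.

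**Figure D5:**
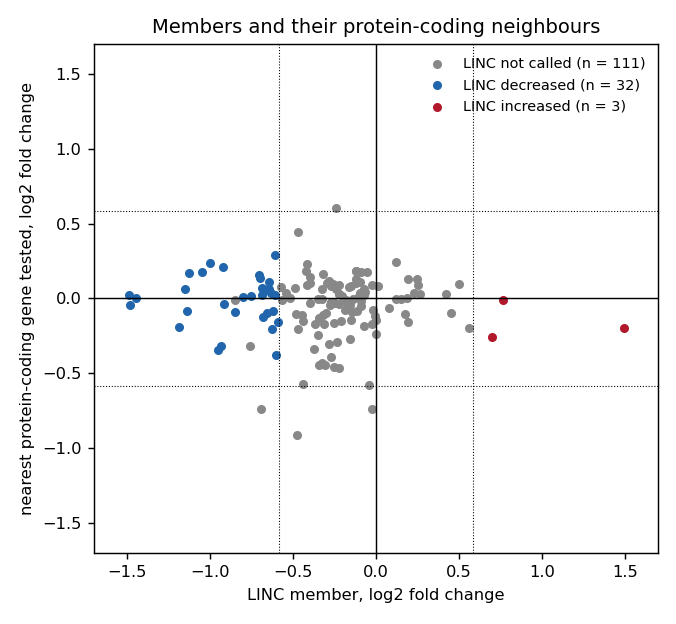
Log2 fold change of the nearest tested protein-coding gene against that of the LINC gene (146 rows; both on the log2(TPM + 0.1) scale; dotted lines, 1.5-fold). Blue points (decreased LINC genes) spread along the horizontal axis, with neighbours between -0.38 and 0.29.

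Divergent pairs, in which a protein-coding gene starts within 1 kb on the opposite strand and runs away from the LINC gene, were found for 6 members, of which 3 were decreased (22.3% of all LINC rows and 3.48% of all genes). Each of the 3 calls ended under some alternative, that of LINC00205 with quantile normalization, that of LINC01089 without LLY-283 replicate 4 and that of LINC01896 in several settings. LINC00205, chosen here for its position, was at 12, 9.49, 9.05 and 10.54 TPM in vehicle and 6.71, 7.70, 5.65 and 5.09 TPM in LLY-283 (log2 fold change -0.71, limma adjusted p = 0.00488), while POFUT2, an O-fucosyltransferase gene, was at 30.9 ± 1.52 and 34.5 ± 2.65 TPM (SD, n = 4; log2 fold change 0.15, limma adjusted p = 0.0914). LINC01896 was at 15.12, 13.29, 15.65 and 13.29 TPM in vehicle and 10.26, 12.20, 9.43 and 6.73 TPM in LLY-283 (log2 fold change -0.59, limma adjusted p = 0.0207; not called without vehicle replicate 1 or 3 or LLY-283 replicate 4), while SALL3, a zinc finger transcription factor gene, was at 17.2 ± 1.14 and 15.4 ± 0.622 TPM (log2 fold change -0.16, limma adjusted p = 0.0664). SETD1B, a histone H3K4 methyltransferase gene whose start is 103 bases from that of LINC01089, was at 18.5 ± 0.373 and 19.2 ± 0.907 TPM (log2 fold change 0.05, limma adjusted p = 0.415). The difference between the 2 genes of a pair was not tested.

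The promoter windows of LINC00205 (chr21:45287802-45288101, plus strand) and LINC01896 (chr18:78979642-78979941, minus strand) are shown because most of each also lies in the window of its partner. RefSeq places the starts 157 bases apart for LINC00205 and POFUT2 (256 bases of window shared) and 127 bases apart for LINC01896 and SALL3 (226 bases shared). Capitals are as above.
LINC00205 promoter: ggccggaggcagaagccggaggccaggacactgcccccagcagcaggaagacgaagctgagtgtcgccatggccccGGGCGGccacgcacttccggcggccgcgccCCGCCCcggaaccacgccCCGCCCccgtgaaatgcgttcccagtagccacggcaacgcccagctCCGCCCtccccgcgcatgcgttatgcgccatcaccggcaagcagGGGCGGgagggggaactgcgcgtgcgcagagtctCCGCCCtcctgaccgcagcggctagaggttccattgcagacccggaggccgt
LINC01896 promoter: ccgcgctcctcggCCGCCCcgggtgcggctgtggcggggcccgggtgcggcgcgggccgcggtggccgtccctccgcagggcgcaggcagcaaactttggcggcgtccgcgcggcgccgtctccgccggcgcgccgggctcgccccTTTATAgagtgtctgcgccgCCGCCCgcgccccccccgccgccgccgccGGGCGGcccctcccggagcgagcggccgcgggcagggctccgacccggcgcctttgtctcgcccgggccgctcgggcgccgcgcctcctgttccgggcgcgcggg
The LINC00205 window has 72.3% GC with 6 GGGCGG, and the LINC01896 window has 84.0% GC with 3 GGGCGG and 1 TATAAA. RefSeq gave a window for 105 members. TATAAA was in 13.3% of these, CCAAT in 47.6% and GGGCGG in 50.5%. Of the 35116 windows of the same length on the other chromosomes, 11.5%, 34.6% and 45% held them. There every window was counted and not only the first of a gene, so the shares are not on the same unit. Among the 20 decreased members with a window the shares were 20%, 45% and 50%, and among the 83 not called 10.8%, 48.2% and 50.6%.

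The structure of decreased and uncalled LINC genes is given as medians, and no difference between them was tested. The median number of exons was 4 in both, the median transcript length was 1492 bases in decreased and 1389 bases in uncalled genes, and the median GC content was 49.2% and 48.0%. The median gene span was 10966 bases in decreased and 25271 bases in uncalled genes. Introns opening with GT and ending with AG made up 99.0% of 104 introns of decreased genes and 97.5% of 364 of uncalled genes. Donors reading GTAAG were 30.8% and 32.1%, and those reading GTGAG 20.2% and 22.8%. Across genes, the Spearman correlation of the log2 fold change was -0.02 with exon number, 0.03 with transcript length, -0.15 with GC content, 0.10 with span and 0.15 with mean TPM, as descriptions over points that share libraries. Of the 146 annotated rows, 137 were lncRNA genes and 9 pseudogenes, 19 overlapped a protein-coding gene and 41 shared over 20% of their 50-base stretches. Leaving out the overlapping, sharing and unannotated rows kept 95, of which 20 (21.1%) were decreased and 3 increased. Of all genes tested, 3.48% were decreased and 0.394% increased. Whether reads were counted by strand is not given in the sources used here, so reads of opposite genes may not be told apart.

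Intergenic long noncoding RNAs that carry names of their own were compared as a list of 32, of which 23 were tested. LLY-283 lowered 8 of these and raised none by limma at over 1.5-fold (3.48% and 0.394% of all genes tested). At an adjusted p under 0.05 and any fold 12 fell and 2 rose (17.6% and 8.61% of all genes), the latter being DANCR (log2 fold change 0.25, limma adjusted p = 0.00502) and HOTAIRM1 (0.40, limma adjusted p = 0.000139), both named for their values. At an unadjusted p under 0.05, 14 were negative and 2 positive, against 25.4% and 13.2% of all genes tested. Their median change was -0.47 on the log2 scale. NEAT1, the scaffold of paraspeckles, had the smallest p and was at 756.13, 742.84, 787.97 and 812.61 TPM in vehicle and 194.97, 181.77, 180.11 and 105.92 TPM in LLY-283 (log2 fold change -2.26, limma adjusted p = 4.7e-05). The NEAT1 values are per gene and do not tell its transcripts apart, and a transcript without a poly(A) tail was not measured. Genes of nuclear RNA surveillance, such as those of the exosome and its adaptors, were tested for 25 of 25. None was called by limma at over 1.5-fold, 4 fell and 3 rose at any fold, 11 had an unadjusted p under 0.05 (38.6% of all genes tested), and the median was 0.05. Genes of Integrator and transcription termination, tested for 26 of 26, likewise gave no call by limma. At any fold 2 fell and 4 rose, 11 had an unadjusted p under 0.05, and the median was -0.04. For both lists the shares over all genes are 3.48% and 0.394% called, and 17.6% falling and 8.61% rising at any fold, a split that, as given above, turned with the scaling.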

How the data were processed

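RNA-seq was measured in 8 U251 libraries, 4 of vehicle and 4 of LLY-283 (100 nM, 24 h). Per the labels and methods, RNA was captured with oligo-dT, reads were trimmed with cutadapt 1.18 and mapped to GRCh38 with STAR, and RSEM estimated expression on GENCODE release 41. The deposited values are TPM per gene and library, to 2 decimals. TPM removes length and depth but not composition, and keeps no depth. log2(TPM + 0.1) was compared for 14478 genes (mean TPM 1 or more) with limma 3.58.1 in R 4.3.3 (lmFit, eBayes with trend; Benjamini-Hochberg). A call needed an adjusted p under 0.05 and over 1.5-fold. On simulated data 182 of 200 genes changed 1 log2 unit were called, with 4 false calls. The changed genes were drawn from all genes tested, in either direction, with independent normal noise. The simulation held no deviant library, so these figures may not hold for the LINC rows. The members and lists were chosen with earlier results of these data known. Named genes were all increased members, the 12 rows with the largest non-overlapping decreases, the 5 most abundant, 8 fixed by name, those beside the level limit, and the list gene with the smallest p; LINC00205, LINC01896 and others outside this rule were named after their values were seen. Positions came from GENCODE release 44 by gene ID, and promoters from RefSeq by symbol. Alternatives covered pseudocount, filter, scaling, eBayes settings, replicate block, GC and length, and each library left out.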

Additional observations from a re-analysis of the deposited data

Results flagged for a closer look

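Of 56 groups of 4 libraries examined (27 named rows and the summed level, in each treatment), 6 held a library whose gap to the nearest value, as a share of the range, passed Dixon's 95% critical value, which chance gives in about 1 of 20 groups. LINC02593 was at 2.86 TPM in LLY-283 replicate 4, the lowest of 4. LINC00106 was at 4.31 TPM in LLY-283 replicate 3, the highest of 4, and both of its identical rows were counted. LINC01515 was at 6.02 TPM in vehicle replicate 1, the highest of 4. LINC01145 was at 8.99 TPM in vehicle replicate 4, the highest of 4. The summed TPM of the LINC loci was 924.88 in LLY-283 replicate 4, the lowest of 4.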

How the results depend on the processing

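Against the main counts of 33 decreased and 3 increased, a pseudocount of 1 gave 20 and 1 with a median log2 fold change of -0.212, and a pseudocount of 0.5 gave 1 increased. A filter at a mean of 2 TPM, which tests fewer LINC rows, gave 0 increased over 1.5-fold and 3 at any fold. Quantile normalization gave 14 decreased and 5 increased (260 and 126 over all genes), so that decreases made up 73.7% of calls instead of 91.7%, with a median of -0.122. Without the rows that overlap, share sequence or are not annotated, a choice made after seeing the data, 20 were decreased over 1.5-fold and 24 at any fold, from fewer rows. Leaving out each library in turn gave 22 to 31 LINC rows decreased and 1 to 3 increased. At any fold the counts were 37 to 42 and 4 to 6, and the median was -0.294 to -0.228. Over all genes tested, the same fits gave 428 to 516 decreased and 42 to 74 increased over 1.5-fold. The lowest count of decreased LINC rows came without LLY-283 replicate 4, and the lowest of increased LINC rows without LLY-283 replicate 3.

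With the replicate number as a block, 29 of the 33 decreases were kept, 1 gene was increased over 1.5-fold and 3 at any fold. Over all 14478 genes the block gave 464 decreased and 52 increased over 1.5-fold, and 2201 and 1095 at any fold. Same-numbered libraries did not deviate together (correlations of -0.09 to 0.03, against -0.21 to 0.20 between libraries of different number). The labels do not say whether the numbers pair the samples, and these correlations cannot settle it. LINC00665 turned positive with quantile normalization (0.03083), median-of-ratios scaling (0.03837), removal of the GC and length trend (0.04621), and without vehicle replicate 2 or LLY-283 replicates 1 or 3 (leaving out single libraries gave -0.02476 to 0.01298); it was not called in any of these. The cause of these shifts was not tested. Of the alternatives for single named rows, 500 of 531 kept their side of the adjusted p threshold (the reversed LINC00665 values included), 27 lost it and 4 gained it; the replicate block ended the call of LINC00622 (limma adjusted p = 0.058); LINC01775, LINC01145 and LINC00339 lost it in 10, 8 and 7 settings.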
